A study of Mus musculus with 6 samples.

Results

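The secondary and tertiary granule genes Camp, Ngp, Ltf, Lcn2, Chil3, Cd177, Mmp8, Mmp9, Olfm4 and Fcnb were followed through granulocyte development in mouse bone marrow. They were taken by symbol, and all 10 were found among the 32285 genes counted. Bone marrow enriched for cells with the receptor c-Kit came from female BALB/c mice that were 10 weeks old at harvest, in 3 groups of 3 mice. Non-tumor-bearing (NTB) mice had no tumor and no treatment. Vehicle mice carried 4T1, a syngeneic mammary carcinoma cell line implanted in the mammary gland, and received DPBS i.p. every day for 2 weeks from the time their tumors could be measured. BRQ mice carried 4T1 and received brequinar, an inhibitor of the pyrimidine synthesis enzyme DHODH, at 10 mg/kg i.p. on the same schedule. Each of 3 pools joined 1 mouse of each group in 1 single-cell 3' library, and hashtag antibodies told the mice apart. No tumor-free mouse received BRQ, so the BRQ comparisons are between tumor-bearing mice or against untreated mice without a tumor.

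Neutrophils load their granules in a fixed order as they mature. Primary granules, with myeloperoxidase and serine proteases, are filled in promyelocytes. Secondary granules, with antimicrobial and metal-binding proteins, follow in myelocytes, and tertiary granules, rich in gelatinase, are filled last, so the messages present in a cell mark its stage. Camp encodes the cathelicidin precursor, Ngp a cathelicidin-related granule protein, Ltf the iron-binding lactoferrin and Lcn2 a lipocalin that captures bacterial siderophores. Chil3 encodes Ym1, a chitinase-like protein, Cd177 a membrane glycoprotein of neutrophils, and Olfm4 a matrix glycoprotein stored in secondary granules. Mmp8 is the neutrophil collagenase, Mmp9 the gelatinase of tertiary granules, and Fcnb is ficolin-B, a pattern recognition lectin of myeloid cells.

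All 10 are protein-coding genes. In the GENCODE M21 annotation of GRCm38, 4 lie on chromosome 9 (Camp, Ngp, Ltf and Mmp8) and 3 on chromosome 2 (Lcn2, Mmp9 and Fcnb). Camp lies at chr9:109847379-109849617 and Ngp at chr9:110419747-110423012. RefSeq promoter windows of GRCm38.p6 were found for 9 of the 10. The 250 bases before the start are shown for Fcnb, the member whose level in the median GMP stood clear of erythroid and B cells (chr2:28084879-28085128, minus strand), for Chil3, the member that rose with BRQ at each stage (chr3:106167565-106167814, minus strand), and for Ltf, which had the largest fold changes among the members called in mature cells (chr9:111019042-111019291, plus strand). Capitals mark the letters TTGCNNAA on either strand, a form of the C/EBP motif.
Fcnb: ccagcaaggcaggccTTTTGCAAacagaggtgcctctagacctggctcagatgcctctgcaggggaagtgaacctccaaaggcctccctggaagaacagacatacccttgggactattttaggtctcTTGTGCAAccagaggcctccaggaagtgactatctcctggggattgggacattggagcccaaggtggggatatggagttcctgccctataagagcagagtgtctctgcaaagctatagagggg
Chil3: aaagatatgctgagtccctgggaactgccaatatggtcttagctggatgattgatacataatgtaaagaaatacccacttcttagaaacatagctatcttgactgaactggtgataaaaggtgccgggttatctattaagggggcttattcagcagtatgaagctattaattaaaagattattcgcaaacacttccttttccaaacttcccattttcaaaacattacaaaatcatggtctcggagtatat
Ltf: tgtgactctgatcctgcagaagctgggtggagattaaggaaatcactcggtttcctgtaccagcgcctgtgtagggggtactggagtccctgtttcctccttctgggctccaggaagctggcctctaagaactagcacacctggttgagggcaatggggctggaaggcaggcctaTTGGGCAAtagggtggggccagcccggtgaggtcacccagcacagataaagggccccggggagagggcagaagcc
These letters were present in 5 of the 9 member windows (Ngp, Ltf, Lcn2, Mmp8 and Fcnb) and in 9.56% of the 32851 RefSeq windows. In Fcnb the matches began 235 and 123 bases before the start, in Ngp 138 and 11, and in Ltf 75. These starts are those of RefSeq and can differ from GENCODE. The Ngp window (chr9:110419558-110419807) runs past the GENCODE start given above, and its match at 11 lies inside the GENCODE gene. The Chil3 window held no match to these letters. Of 5 other motifs searched on both strands, GAGGAAG (PU.1) was in 3 of 9 against 10.6% of all windows, AAATCA (GFI1) in 3 of 9 against 12.4%, TTNCNNAA in 8 of 9 against 36.8%, and TGTGGT (RUNX) and TTGCGCAA in none of 9 against 14.0% and 0.164%. TTNCNNAA includes every TTGCNNAA match. A match is a description of the letters only.

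The pools held 11441 to 14297 cell barcodes with medians of 7445 to 7996.5 UMIs, of which 9593 to 11994 passed the filters, and 38 to 48 barcodes occurred in any pair of pools. Hashtags assigned 382 to 2780 cells to a mouse, with the fewest from vehicle mouse 2, and left 33.1% to 52.19% of barcodes without a call. UMIs of a gene summed over a mouse's cells of a stage were tested with edgeR's quasi-likelihood test with Benjamini-Hochberg adjustment, and adjusted p under 0.05 was called. Fewer molecules per cell and fewer cells that express a gene cannot be told apart in such sums. Clustering, made without the members, gave 18 clusters. Clusters 0 and 1 were GMP-like, clusters 2 and 8 immature neutrophil-like and cluster 3 mature neutrophil-like by their markers. Cluster 4 carried GMP and pre-neutrophil markers and led with Fcnb, Lipg, Clec4b2 and Vcam1, and is called by its number. No cluster met the rule for a pre-neutrophil-like name, so cluster 4 was compared in place of that stage, a choice made after the clusters were seen. GMPs were cells with Ms4a3, a gene that marks these progenitors, above a log level of 3, whatever their cluster. From 61.0% to 79.2% of a mouse's GMPs lay in GMP-like clusters and 13.1% to 26.6% in cluster 4.

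The members peaked in a staggered order, shown here as CPM, the counts of a gene scaled to all UMIs, over all cells of a cluster. UMIs of 3' ends do not scale with transcript length, but how well each gene is captured was not measured. A level is therefore best read against the same gene in other clusters. Fcnb came first. It stood at 171 in cluster 0 and 711 in cluster 1, rose to 1681 in cluster 4 and 1299 in cluster 2, and dropped to 204 in cluster 8 and 24 in mature cells. Camp went from 149 in cluster 0 to 7332 in cluster 4 and 49950 in cluster 2, then to 36353 in cluster 8 and 1353 in mature cells. Ngp ran beside it, with 6374 in cluster 4 and 36871 in cluster 2. Lcn2, Ltf, Chil3, Cd177 and Olfm4 were at 559, 121, 160, 248 and 70 in cluster 4 and at 14410, 12532, 2021, 1798 and 1194 in cluster 8, where Lcn2, Ltf, Cd177 and Olfm4 peaked. Mmp8 and Mmp9 were last. They stood at 7 and 29 in cluster 2, 1199 and 1467 in cluster 8, and 1922 and 2793 in mature cells, where the other 8 members had fallen from their peaks. Clusters were formed from other genes of the same cells, so these levels are given without a test. In cluster 0 Fcnb, Ngp (154) and Camp were at close levels, so no order of first expression is read there. The levels join all mice, and the groups make up different shares of the clusters. In mature cells the median mouse held 3924 CPM of Camp in NTB and 1086 in vehicle mice, TMM-scaled.

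**Figure D1:**
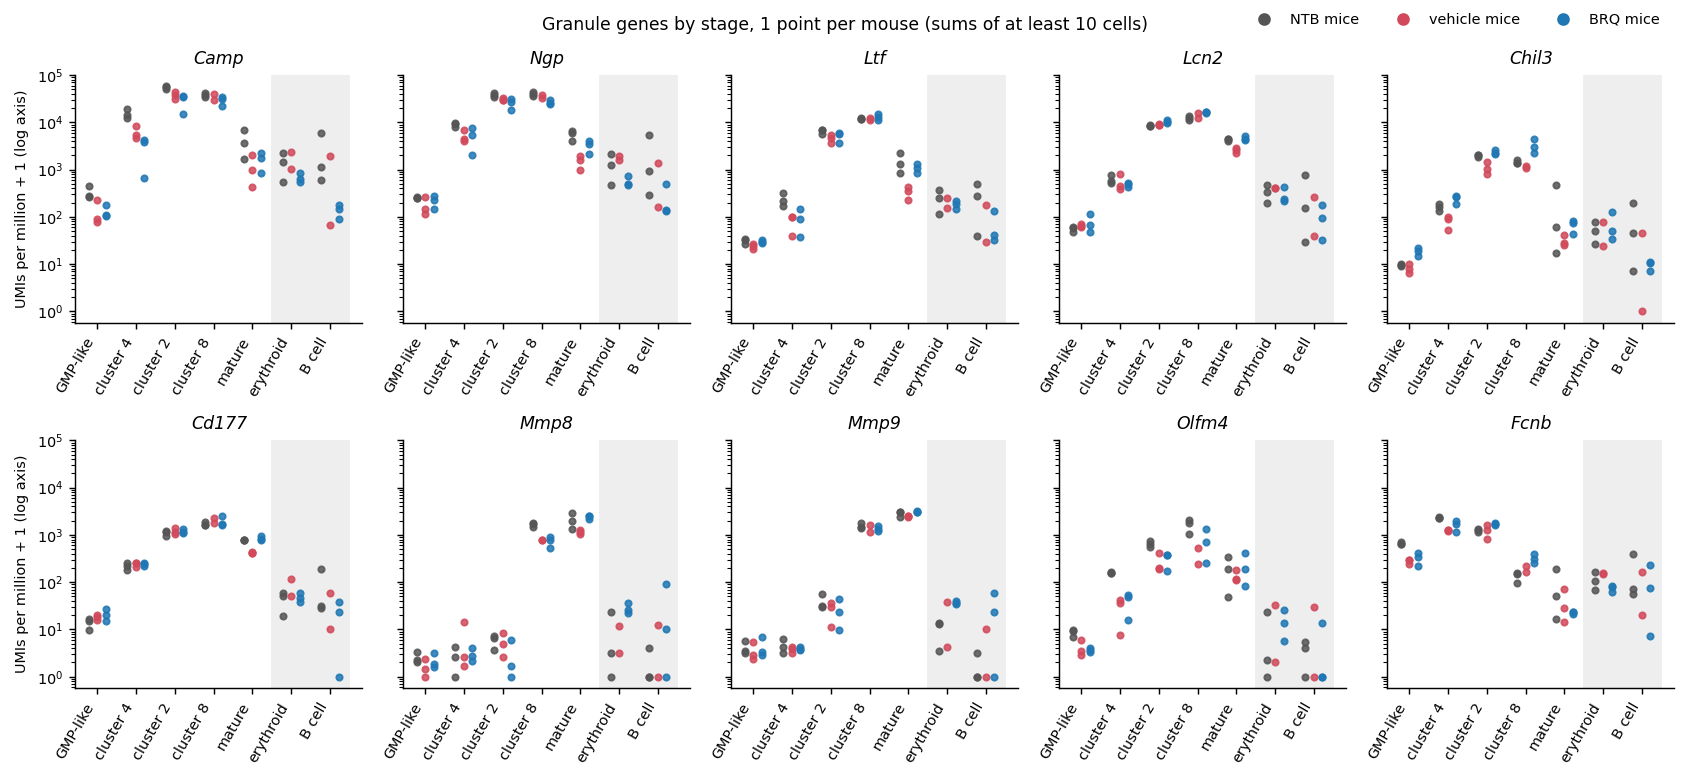
CPM plus 1 (log axis, not TMM-scaled) of each member by stage, with 1 point per mouse for sums of at least 10 cells, NTB grey, vehicle red and BRQ blue, and erythroid and B cells on a grey ground. Fcnb peaks in clusters 4 and 2, Camp and Ngp in clusters 2 and 8, and Mmp8 and Mmp9 in mature cells, where they stand at 1922 and 2793 over all cells.

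Erythroid and B cells, which do not make these proteins, gave a guide to free RNA and to mixed droplets. Per mouse, erythroid cells held 51.2 to 2350 CPM of Camp, 73.9 to 2099 of Ngp, 34.1 to 361 of Ltf and 51.2 to 482 of Lcn2. B cells held 66.2 to 6007 of Camp and 0 to 397 of Fcnb. Erythroid Fcnb ranged from 5.68 to 160 and Chil3 from 5.68 to 125. GMPs held 196 to 2538 of Camp and 350 to 1080 of Fcnb, TMM-scaled. The top 5% of erythroid cells carried 44.4% to 93.2% of a mouse's erythroid Camp. Vehicle mouse 2, with 9 erythroid cells, gave the lowest erythroid CPM of each of these members. The median erythroid cell held 0.435 to 1.20 Camp UMIs per 10000 and no Fcnb in any mouse.

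The median GMP held 2.42 to 10.7 Fcnb UMIs per 10000 but only 0.702 to 1.48 of Camp and 0.699 to 2.40 of Ngp, close to the erythroid medians of 0.435 to 1.20 and 0.587 to 1.10. The medians of Ltf, Chil3, Cd177, Mmp8, Mmp9 and Olfm4 were 0 in GMPs of each mouse. After thinning to 2000 UMIs a cell, 42.0% to 77.9% of GMPs and 0% to 13.2% of erythroid cells had an Fcnb UMI, against 81.3% to 93.3% and 11.1% to 36.8% unthinned. For Camp the thinned shares were 19% to 40.7% of GMPs and 0% to 42.1% of erythroid cells, against 61.9% to 77.3% and 63.0% to 94.7% unthinned. The thinned erythroid shares of 0% came from the 9 cells of vehicle mouse 2, too few for a share of 0 to set a limit. Thinning left out 1 to 11 GMPs and 0 to 4 erythroid cells per mouse as too shallow. Median depth was 10800 to 18000 UMIs in GMPs and 15700 to 21800 in erythroid cells. The top 5% of GMPs carried 60% to 78.7% of a mouse's Camp UMIs and 17.0% to 29.2% of its Fcnb UMIs. For Chil3 the thinned shares were 3.16% to 11.4% of GMPs and 0% to 15.9% of erythroid cells, which did not set GMPs apart from this background. In cluster 4 the median cell held 9.82 to 24.6 Fcnb, 6.36 to 81.2 Ngp and 1.40 to 150 Camp UMIs per 10000, with the lowest value of Camp and of Ngp in BRQ mouse 3.

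**Figure D2:**
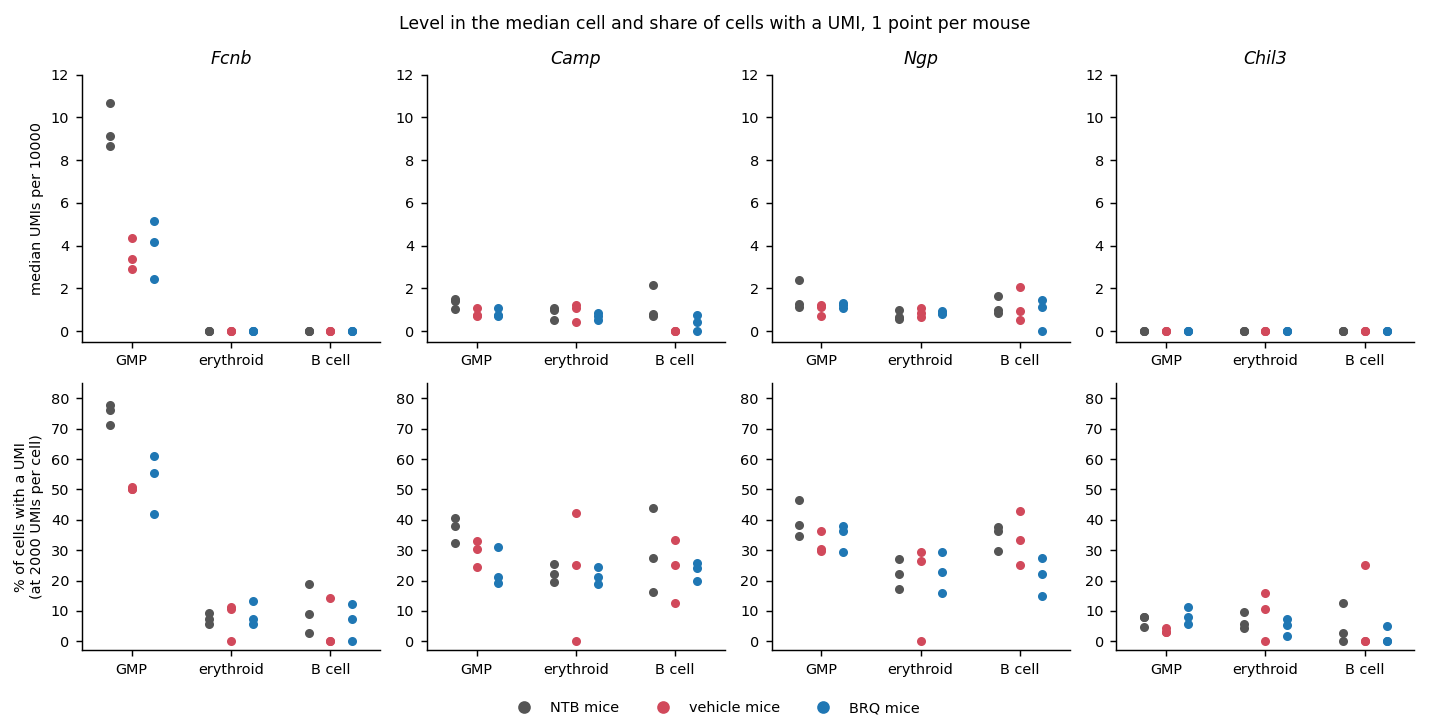
UMIs per 10000 in the median cell (upper row) and percent of cells with a UMI after thinning to 2000 UMIs per cell (lower row) for Fcnb, Camp, Ngp and Chil3 in GMPs, erythroid cells and B cells, 1 point per mouse, NTB grey, vehicle red, BRQ blue. The Fcnb medians of GMPs (2.42 to 10.7) stand clear of the erythroid and B cell medians of 0, while those of Camp and Ngp do not.

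Veh-GMPs were compared with NTB-GMPs to see what the tumor changed in these progenitors. Fcnb stood at 1073, 1051 and 1080 CPM in the NTB mice 1 to 3, at 484, 427 and 488 in the vehicle mice and at 590, 668 and 350 in the BRQ mice. Each NTB mouse was above every tumor-bearing mouse, and vehicle and BRQ mice overlapped. Fcnb was 2.28-fold lower in Veh-GMPs (log2 fold change -1.19 ± 0.15 SE, adjusted p = 1.78e-05) and lower in BRQ-GMPs than in NTB-GMPs (-0.99 ± 0.14, adjusted p = 0.000252), and BRQ-GMPs did not differ from Veh-GMPs beyond the spread (0.20 ± 0.14, adjusted p = 0.421). In all, 7 of 10 members were lower in Veh-GMPs and none was higher, where 4.68% of all 10331 genes tested were called lower and 11.3% were called. The median log2 fold change of the members was -1.06, against -0.01 over all genes. Camp was at 2538, 2268 and 1957 (NTB mice), 1459, 601 and 584 (vehicle mice) and 902, 470 and 196 (BRQ mice). Vehicle mouse 1, with most of the GMPs of its group, was the highest of the vehicle mice for Camp, Ngp and Ltf. Camp fell by 1.34 (adjusted p = 0.0117), Ngp by 0.95, Ltf by 1.42, Lcn2 by 0.65, Chil3 by 1.63 and Olfm4 by 1.16 on the log2 scale. Cd177, Mmp8 and Mmp9 were not called.

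Several of these calls were lost without a single mouse, or when GMPs outside the GMP-like clusters were left out, a fit added after the data were seen. Without NTB mouse 2 the adjusted p was 0.0505 for Camp, 0.0695 for Ngp, 0.094 for Lcn2 and 0.172 for Olfm4. Without NTB mouse 1 it was 0.0564 for Ngp and 0.128 for Lcn2, and without NTB mouse 3 it was 0.0512 for Olfm4. Without vehicle mouse 2 it was 0.0827 for Camp and 0.11 for Ngp and Lcn2, and without vehicle mouse 3 it was 0.0625, 0.0868 and 0.0893. The log2 fold changes behind these lost calls were -1.11 to -1.33 for Camp, -0.77 to -0.94 for Ngp, -0.50 to -0.64 for Lcn2 and -0.92 to -1.31 for Olfm4. The calls of Fcnb, Ltf and Chil3 were kept without any 1 mouse. Without cells marked by Scrublet, Ltf (-0.67, adjusted p = 0.0508) and Lcn2 (-0.32, adjusted p = 0.508) were not called, 5 members in place of 7, with a median of -0.77. Among GMPs within GMP-like clusters, 1 of the 9 members tested kept its call, Fcnb (-1.24 ± 0.18, adjusted p = 7.25e-05), where 787 of 10062 genes were called, and Camp (-0.89, adjusted p = 0.0696), Ngp (-0.44, 0.304), Ltf (-0.28, 0.439), Chil3 (-0.07, 0.943) and Olfm4 (-0.33, 0.79) were no longer called, while Lcn2 turned to 0.28 (0.506). Over all cells of GMP-like clusters, Camp (-1.17, adjusted p = 0.00958) and Fcnb (-1.17, adjusted p = 7.18e-05) were called, 2 of 10 where 2380 of 10911 genes were. With the same number of GMPs per cluster from every mouse, cluster 4 included, 6 of the 8 members tested were lower, where 462 of 7234 genes were called, with a median of -1.15. Lcn2 was the one lost (-0.49, adjusted p = 0.0697), and Camp was at -1.63, Ngp at -0.84, Ltf at -1.77, Chil3 at -1.33, Olfm4 at -2.37 and Fcnb at -0.98.

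With BRQ, 2 of 10 members rose in GMPs over vehicle and none fell, where 6.08% of genes were called higher and 13.4% were called. Chil3 was at 25.9, 23.8 and 16.7 in Veh-GMPs and 82.0, 45.1 and 54.0 in BRQ-GMPs, 2.67-fold higher (1.42 ± 0.20, adjusted p = 3.13e-05), and stood at 103, 64.0 and 56.3 in NTB-GMPs. Within GMP-like clusters the rise of Chil3 was 1.13 ± 0.18 (adjusted p = 0.000135), and there it was also above NTB (1.06 ± 0.29, adjusted p = 0.0316). Mmp8 was called higher (1.34 ± 0.29, adjusted p = 0.00341), but from 2.55 to 12.7 CPM in the tumor-bearing mice, with at most 1.56% of thinned GMPs holding a UMI, and the call was lost without vehicle mouse 1 (0.167). Erythroid Mmp8 was higher in BRQ than in vehicle mice too, without overlap, at 24.8, 34.8 and 21.2 CPM in BRQ and 2.10, 0 and 10.6 in vehicle mice, and its part in the call was not tested. Against NTB, BRQ-GMPs were lower in Camp (-2.11 ± 0.34, adjusted p = 0.000812), Ltf (-1.26 ± 0.16), Olfm4 (-1.46 ± 0.31) and Fcnb, and higher in Mmp8 (1.67 ± 0.47, adjusted p = 0.0361), 5 of 10 where 6.01% of genes were called. Olfm4 lost its call without NTB mouse 2 (-1.22, adjusted p = 0.108). The direction of Ltf turned when hashtags were called from the ratio of tag counts. Among GMPs within GMP-like clusters, 2 of the 9 members tested were called lower than in NTB and 1 higher, where 446 of 10062 genes were called. Mmp8 lost its call without NTB mouse 1 (0.0636), 2 (0.211) or 3 (0.125), vehicle mouse 2 (0.0534) or BRQ mouse 3 (0.0744), with log2 fold changes of 1.30 to 1.90. Its direction turned at an Ms4a3 limit of 2.5 and over all cells of GMP-like clusters. With pool as a block, Camp was also lower in BRQ-GMPs than in Veh-GMPs (-0.85, adjusted p = 2.71e-05), and against NTB Ngp (-0.93, adjusted p = 3.2e-06) and Lcn2 (-0.55, adjusted p = 0.000414) were lower and Mmp9 higher (1.25, adjusted p = 0.00649), 8 members in place of 5, where the block also raised the genes called from 621 to 1217 of 10331. Mmp9 stood at 1.88 to 14.7 CPM in GMPs, and in erythroid cells at 32.9 to 38.4 in BRQ against 2.51 to 12.7 in NTB mice, whose part in this call was not tested. Without cells marked by Scrublet, a doublet caller, Mmp8 was not called in either comparison (0.47 and 0.36, adjusted p = 0.601 and 0.834), and Camp was lower in BRQ-GMPs than in Veh-GMPs (-1.05, adjusted p = 0.0324).

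In cluster 4 cells, where Camp and Ngp were first abundant, 6 of the 8 members tested were lower in vehicle than in NTB mice, where 5.04% of 9067 genes were called lower and 11.9% were called. Mmp8 and Mmp9 were too low to be tested, at 0 to 14.0 and 2.26 to 5.83 CPM. Olfm4 was at 171, 167 and 155 in NTB mice, at 37.4, 6.98 and 41.6 in vehicle mice and at 45.0, 51.8 and 13.1 in BRQ mice. It had the largest change of the 8 in vehicle, -2.20 ± 0.25 (adjusted p = 6.6e-07), and changed by -2.16 ± 0.23 in BRQ mice against NTB (adjusted p = 1.52e-07). Fcnb was at 2510, 2367 and 2393 (NTB mice), 1345, 1251 and 1274 (vehicle mice) and 1597, 1887 and 1028 (BRQ mice), lower by 0.91 and 0.69 on the log2 scale (adjusted p = 2.6e-05 and 0.000633). Camp was at 20670, 12450 and 14110 (NTB mice), 9243, 5747 and 4824 (vehicle mice) and 3705, 4120 and 578 (BRQ mice), which did not overlap in any pair of groups. Camp fell in vehicle mice (-1.25 ± 0.33, adjusted p = 0.0118) and was lower again with BRQ (-1.24 ± 0.33 against vehicle, adjusted p = 0.0185). Ltf fell by 1.42 in vehicle and 1.40 in BRQ mice against NTB (adjusted p = 0.00226 and 0.00104). For vehicle against NTB, DESeq2 called 3 of the 8, Chil3, Olfm4 and Fcnb, and not Camp (-1.25, adjusted p = 0.255), Ngp (-0.75, 0.337) or Ltf (-1.54, 0.1). For BRQ against vehicle it did not call Camp (-1.24, adjusted p = 0.426). With the members kept in clustering the median was -0.31 in place of -0.88. Olfm4 (-1.74) and Fcnb (-0.80) were then called lower and Cd177 higher (0.93), and Camp (-0.98), Ngp (-0.23), Ltf (-0.39) and Chil3 (-0.18) were not called.

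**Figure D3:**
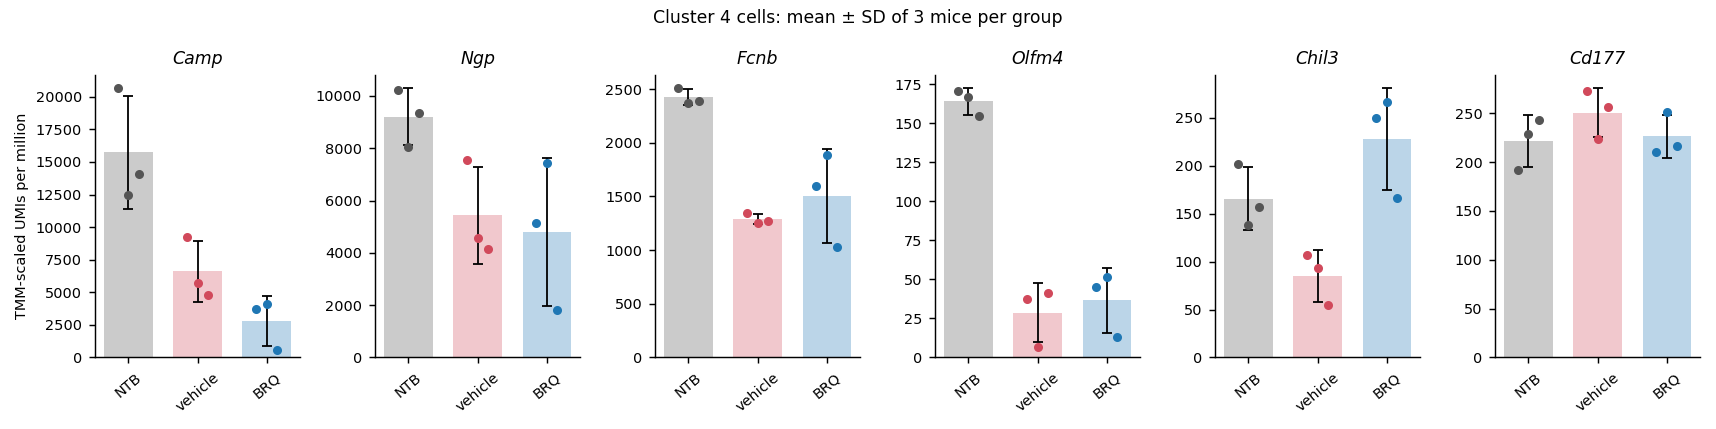
TMM-scaled CPM of 6 members in cluster 4 cells, bars for the mean and whiskers for the SD of 3 mice per group, points for mice. Camp steps down from NTB to vehicle to BRQ, Olfm4 and Fcnb are lower in both tumor-bearing groups, Chil3 is lower in vehicle only, and Cd177 stands at 192 to 273 in all 9 mice.

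Chil3 took another course in cluster 4. It was at 202, 138 and 157 in NTB mice, at 106, 93.0 and 54.2 in vehicle mice and at 249, 266 and 167 in BRQ mice. It was lower in vehicle than in NTB mice (-0.86 ± 0.18, adjusted p = 0.00213), 2.6-fold higher in BRQ than in vehicle mice (1.38 ± 0.17, adjusted p = 1.75e-06) and higher in BRQ than in NTB mice (0.52 ± 0.16, adjusted p = 0.0317). The last call was lost without NTB mouse 2 (0.21) or 3 (0.138) or BRQ mouse 1 (0.129) or 2 (0.116), and the 2 groups overlapped. Of the 8 members tested, Chil3 rose and Camp fell with BRQ against vehicle, where 6.13% of genes were called. Against NTB, BRQ mice had 6 members lower and Chil3 higher, where 10.9% were called, Ngp by -0.94 ± 0.25 and Lcn2 by -0.53 ± 0.18 (adjusted p = 0.0122 and 0.0467) among them. Cd177, at 192 to 273 in all mice, was not called in any comparison. Without NTB mouse 1, vehicle mouse 2 or vehicle mouse 3, the fall of Camp in vehicle mice had adjusted p = 0.0731, 0.0752 and 0.0719, and that of Ngp (-0.76, adjusted p = 0.0433) 0.133, 0.198 and 0.202. Ngp also lost it without NTB mouse 2 (0.0644) or 3 (0.124). The Camp difference between BRQ and vehicle had adjusted p = 0.262 without vehicle mouse 1, and the Lcn2 call was lost without NTB mouse 1 (0.286) or 3 (0.063), vehicle mouse 2 (0.0644) or BRQ mouse 1 (0.151). In these fits the log2 fold changes kept their direction, at -0.98 to -1.13 for Camp and -0.57 to -0.82 for Ngp in vehicle against NTB, -0.92 for Camp in BRQ against vehicle, and -0.32 to -0.61 for Lcn2 and 0.40 to 0.50 for Chil3 in BRQ against NTB.

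**Figure D4:**
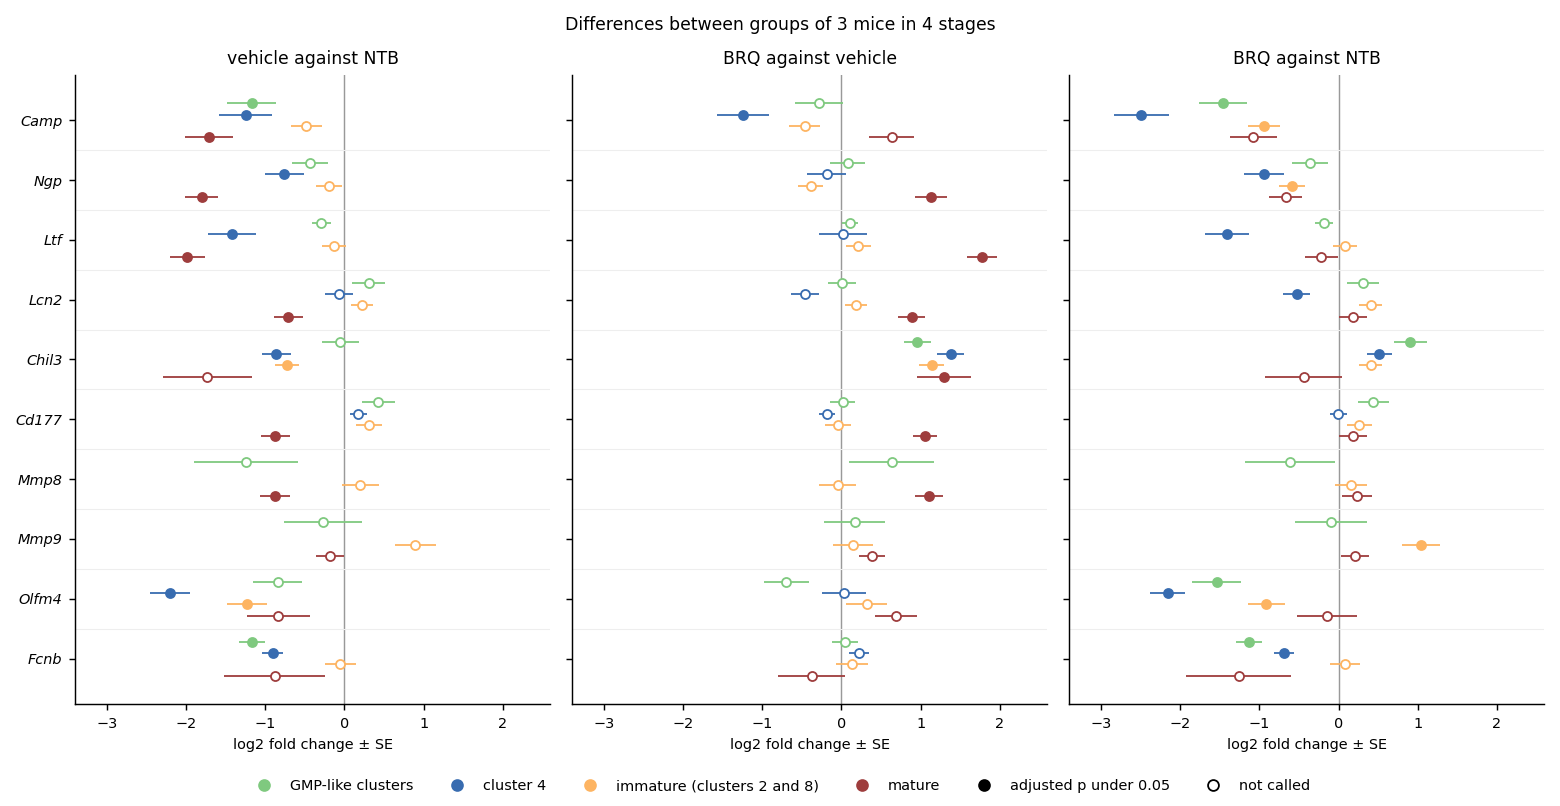
Log2 fold change ± SE of each member in cells of GMP-like clusters, cluster 4, immature and mature neutrophil-like cells for the 3 comparisons, filled where adjusted p was under 0.05. Chil3 is right of 0 at all 4 stages for BRQ against vehicle, and Fcnb and Olfm4 lie left of 0 in GMP-like clusters and cluster 4 for both comparisons against NTB.

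In immature neutrophil-like cells, which hold most members at their highest, few differences were called with the clusters made without the members. Camp was at 58550, 58280 and 47430 (NTB mice), 46170, 38230 and 33370 (vehicle mice) and 34150, 34300 and 16930 (BRQ mice). It fell against NTB in BRQ mice (-0.94 ± 0.20, adjusted p = 0.00411), and in vehicle mice it was not called (adjusted p = 0.239) although the groups did not overlap. Chil3 was at 2161, 1828 and 1864 (NTB mice), 1149, 1427 and 998 (vehicle mice) and 2602, 2202 and 2963 (BRQ mice), again without overlap. It fell in vehicle (-0.73 ± 0.15, adjusted p = 0.00538) and was 2.2-fold higher in BRQ than in vehicle mice (1.14 ± 0.15, adjusted p = 0.00019). This was the only member called for BRQ against vehicle, and only 9 of 7821 genes, 0.115%, were called. Olfm4 was lower in vehicle (-1.23 ± 0.26, adjusted p = 0.00511) and in BRQ mice (-0.91 ± 0.23, adjusted p = 0.0196) than in NTB mice. In all, 2 of 10 members were called for vehicle against NTB, where 1.99% of genes were, and 4 of 10 for BRQ against NTB, where 5.34% were, Ngp (-0.59 ± 0.16, adjusted p = 0.0295) and Mmp9 among them. Fcnb, at 658 to 1567, and Ltf, at 5235 to 8378, were not called in any comparison. The higher Mmp9 in BRQ mice (1.04 ± 0.24, adjusted p = 0.00721) turned to -0.15 in cluster 2 alone and -0.27 in cluster 8 alone, which express it at 29 and 1467 CPM and make up different shares of the cells of each group.

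With the members kept in clustering, 6 of 10 were called for vehicle against NTB, where 1127 of 9214 genes were, with a median of -0.52 in place of -0.09. Camp (-0.91), Ngp (-0.66), Ltf (-0.79), Chil3 (-1.32, in place of -0.73) and Olfm4 were then lower and Mmp9 higher (0.93), and for BRQ against NTB the median turned from 0.12 to -0.14. Vehicle mouse 2 gave 20 immature cells, and several calls were lost without a single mouse. The call of Chil3 in vehicle against NTB had adjusted p = 0.0567 without vehicle mouse 1, that of Olfm4 0.0601 without vehicle mouse 2, and that of Mmp9 0.0954 without NTB mouse 3. For BRQ against NTB, Ngp and Olfm4 lost their calls without NTB mouse 2 (0.098 and 0.0814) or 3 (0.0657 and 0.111) or BRQ mouse 1 (0.097 and 0.0571) or 3 (0.0688 and 0.0549). Their log2 fold changes there were -0.44 to -0.61 and -0.61 to -0.97, and those of the other 3 lost calls were -0.72 for Chil3, -1.09 for Olfm4 and 0.94 for Mmp9. With pool as a block, Camp (-0.49, adjusted p = 0.0168) and Mmp9 (0.93, adjusted p = 0.000546) were called for vehicle against NTB, Camp for BRQ against vehicle (-0.51, adjusted p = 0.0405), and Lcn2 (0.41, adjusted p = 0.013) and Chil3 (0.41, adjusted p = 0.0194) for BRQ against NTB. In the later cells of cluster 8, fitted without vehicle mouse 2, which gave 3 cells, 5 members were called in at least 1 comparison. Chil3 was higher in BRQ mice than in vehicle (1.25, adjusted p = 9.86e-06) and NTB mice (1.05, adjusted p = 2.43e-06). Olfm4 was lower than in NTB mice in vehicle (-1.93, adjusted p = 4.78e-05) and in BRQ mice (-1.22, adjusted p = 0.000547), and Ngp in BRQ mice (-0.61, adjusted p = 0.00816). The fall of Chil3 in vehicle against NTB mice was -0.81 in cluster 2 (adjusted p = 0.000621) and was not called in cluster 8 (-0.20, adjusted p = 0.723). That of Camp in BRQ against NTB mice was -1.04 in cluster 2 (adjusted p = 0.000885) and was not called in cluster 8 (-0.45, adjusted p = 0.112). These differences between the clusters were not tested. Mmp8 was at 1499, 1987 and 1762 (NTB mice), 916 and 879 (vehicle mice) and 797, 969 and 491 (BRQ mice), lower by 0.99 and 1.25 on the log2 scale (adjusted p = 0.000662 and 7.8e-08), where 2.27% and 7.52% of genes were called. Fcnb, by then past its peak, was at 97.3, 160 and 158 (NTB mice), 193 and 247 (vehicle mice) and 260, 323 and 358 (BRQ mice), higher in BRQ than in NTB mice (1.03 ± 0.18, adjusted p = 5.07e-05).

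In the summed counts of mature neutrophil-like cells most members were lower in vehicle mice than in NTB mice and higher in BRQ than in vehicle mice. Both comparisons share the vehicle mice, so they are not separate results. Ltf was at 1986, 909 and 1437 in NTB mice, at 394, 453 and 232 in vehicle mice and at 1431, 1217 and 900 in BRQ mice, and vehicle did not overlap with either group. It was 3.96-fold lower in vehicle than in NTB (-1.99 ± 0.22, adjusted p = 4.72e-09) and 3.41-fold higher in BRQ than in vehicle mice (1.77 ± 0.19, adjusted p = 9.17e-10). These sums rest on few of the cells, since the median mature cell held no Ltf in any mouse, 17.5% to 40% of cells had an Ltf UMI, and the top 5% of cells carried 62.8% to 88.9% of a mouse's Ltf UMIs, 56.5% to 82.6% of its Ngp and 50.5% to 90.0% of its Camp. The top 5% held less of Lcn2 (26.0% to 42.1%) and of Mmp9 (16.0% to 23.6%). Cd177 was at 718, 823 and 850 (NTB mice), 456, 448 and 435 (vehicle mice) and 846, 1055 and 890 (BRQ mice) (-0.87 ± 0.19 and 1.06 ± 0.15, adjusted p = 0.00291 and 4.85e-07). Ngp, Lcn2 and Mmp8 took the same course, with -1.80, -0.71 and -0.87 in vehicle against NTB and 1.13, 0.89 and 1.10 in BRQ against vehicle. Mmp8, still at its peak here, was at 1183, 2075 and 3032 (NTB mice), 1368, 1093 and 1201 (vehicle mice) and 2418, 2831 and 2654 (BRQ mice). In all, 6 of 10 members were lower in vehicle than in NTB mice, Camp included (-1.71 ± 0.31, adjusted p = 0.000249), where 1.63% of 4369 genes were called lower and 2.45% were called. With BRQ 6 of 10 were higher than in vehicle, Chil3 included (1.29 ± 0.34, adjusted p = 0.011), where 4.33% were called higher and 5.38% were called. Mmp9 was at 2155 to 3593 in all 9 mice and was not called. The members' median was -0.88 and 0.97, against 0.07 and -0.01 over all genes.

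**Figure D5:**
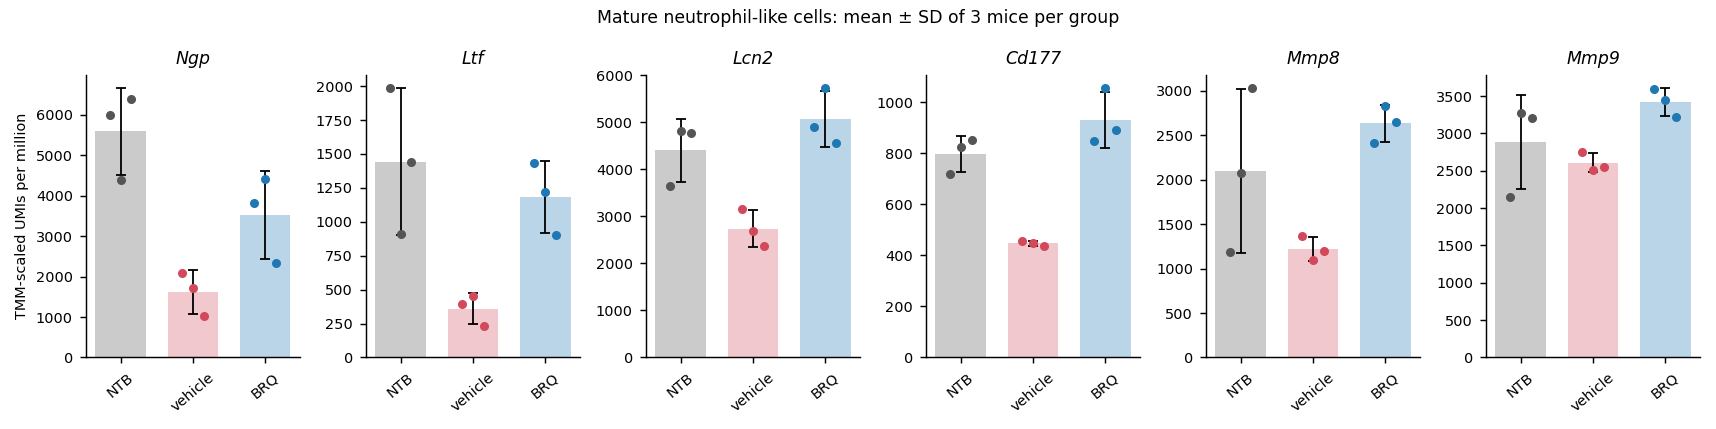
TMM-scaled CPM of 6 members in mature neutrophil-like cells, bars for the mean and whiskers for the SD of 3 mice per group, points for mice. Ngp, Ltf, Lcn2 and Cd177 are lower in each vehicle mouse than in any NTB or BRQ mouse, and Mmp8 is lower in each vehicle mouse than in any BRQ mouse.

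The NTB mice gave few mature cells, 10, 37 and 51 against 110 to 408 in vehicle and 160 to 341 in BRQ mice, and the median mature cell held 1668 UMIs. The vehicle calls of Ngp, Ltf and Camp were kept without any 1 mouse, and those of Cd177 and Mmp8 had adjusted p = 0.138 and 0.414 without NTB mouse 3, at -0.77 and -0.44. Lcn2 lost its call without NTB mouse 2 (0.124) or 3 (0.215) or vehicle mouse 2 (0.0897) or 3 (0.147), at -0.57 to -0.64. For BRQ against vehicle, Ngp, Ltf, Lcn2, Cd177 and Mmp8 were kept without any 1 mouse, and Chil3 lost its call without vehicle mouse 1 (0.0663) or 3 (0.226) or BRQ mouse 3 (0.05), at 1.08 to 1.26. For BRQ against NTB edgeR called none of the 10 members and 2 had an unadjusted p under 0.05, where 0.252% of genes were called. With pool as a block Camp (-1.31, adjusted p = 2.59e-10) and Ngp (-0.75, adjusted p = 0.0053) were called there, as were Chil3 for vehicle against NTB (-1.71, adjusted p = 0.0265) and Camp and Olfm4 for BRQ against vehicle (0.68 and 0.53, adjusted p = 0.00106 and 0.0326). Cluster 2, where Camp and Ngp were highest, held 15% to 29.2% of the NTB mice's cells in the same pools. It held 2.14% to 4.45% of the vehicle mice's and 1.37% to 6.5% of the BRQ mice's, which overlapped. Cluster 8, where Ltf, Lcn2 and Cd177 peaked, held 2.53% to 7.4% (NTB mice), 0.785% to 1.82% (vehicle mice) and 2.6% to 2.93% (BRQ mice). Its share was higher in each BRQ than in any vehicle mouse (exact permutation test, p = 0.1, adjusted p = 0.4). The part of these shares in the levels of the mature cells was not tested.

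Chil3 was higher in BRQ than in vehicle mice at each of 4 stages, by 0.96 ± 0.17 in GMP-like clusters (adjusted p = 0.000724, where 12.6% of genes were called), 1.38 in cluster 4, 1.14 in immature and 1.29 in mature cells. The size of the rise was not shown to differ between neighbouring stages (adjusted p of 0.397, 0.911 and 0.989 for the interaction of stage and group). In GMP-like clusters Chil3 was at 9.37, 9.24 and 7.998 CPM (NTB mice), 9.74, 6.002 and 6.97 (vehicle mice) and 19.95, 13.1 and 15.9 (BRQ mice), which lies within the erythroid range of 5.68 to 125. Vehicle did not differ from NTB there beyond the spread (-0.05 ± 0.23, adjusted p = 0.91). Erythroid Chil3 was at 48.9, 33.7 and 125 in BRQ and 75.7, 5.68 and 23.7 in vehicle mice, so these ranges overlapped. Mature Chil3 in vehicle and BRQ mice, at 25.03 to 84.6 CPM with a median cell at 0 and at most 11.8% of cells with a UMI, also lay within that erythroid range.

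The other genes of the granule program were read in GMPs from lists. Of 25 other secondary and tertiary granule genes, 20 were tested, and 2 rose and 5 fell in Veh-GMPs against NTB-GMPs, with a median of -0.30 against -0.01 over all genes. The counts of this paragraph stand beside 11.3% of all genes called in GMPs for vehicle against NTB, 13.4% for BRQ against vehicle and 6.01% for BRQ against NTB. The lysozyme gene Lyz2 fell by 1.36 and the integrin genes Itgam and Itgb2, the chains of Mac-1, by 0.98 and 0.64 on the log2 scale (adjusted p = 0.000322, 1.27e-05 and 0.00191). With BRQ 5 rose and 1 fell against vehicle, and Itgam (0.65), Lyz2 (0.66) and the protease inhibitor gene Slpi (0.61) had the largest values. Against NTB, 1 rose and 3 fell, which were Pglyrp1 (-0.61), Itgb2 (-0.58) and the oxidase subunit gene Cyba (-0.47). Of 9 primary granule genes tested in GMPs, 1 rose and 1 fell in vehicle, the protease gene Ctsg (0.43, adjusted p = 0.0327) and the myeloperoxidase gene Mpo (-0.34, adjusted p = 0.0454). With BRQ against vehicle 1 rose and 4 fell, among them Mpo (-0.52) and Prtn3 (-0.49) down and Ctsc, which activates granule proteases, up (0.51). Against NTB 1 rose and 2 fell, Ctsc (0.66) up and Mpo (-0.86) and Cd63 (-0.74) down.

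In the sums of immature cells, clusters 2 and 8 together, most primary granule genes, which are past their peak there, were higher in both tumor-bearing groups. Of 9 tested, 6 rose and none fell in vehicle against NTB and again in BRQ against NTB, where 1.99% and 5.34% of all genes were called, with medians of 0.87 and 0.82, where the members' medians were -0.09 and 0.12 and those over all genes -0.01 and 0.00. In cluster 2 alone 8 and 6 of 8 rose, where 315 and 633 of 7240 genes were called, but in cluster 8 edgeR called none of 7 for vehicle against NTB, with 2 at an unadjusted p under 0.05 and a median of 0.02, and 1 rose and 2 fell for BRQ against NTB, with a median of -0.43. These comparisons share the NTB mice. In mature cells 8 of 23 other secondary and tertiary granule genes tested rose and none fell in BRQ against vehicle mice, where 4.33% of all genes were called higher, with a median of 0.42. Of 9 granulocyte regulators tested in GMPs, Cebpb rose (0.36, adjusted p = 0.0174) and Runx1 fell (-0.42, adjusted p = 0.0117) in vehicle against NTB, Stat3 rose (0.28) and Cebpb fell (-0.30) in BRQ against vehicle, and edgeR called none for BRQ against NTB, with 2 at an unadjusted p under 0.05. Over all genes 11.3%, 13.4% and 6.01% were called in these comparisons.

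Over the 18 clusters the members paired with a small set of other genes, by Pearson's r of log2 levels, given as a description. Lyz2 was among the closest to Camp, Ngp, Ltf, Lcn2 and Olfm4 (r = 0.931 to 0.967), Orm1 and Inhba to Chil3 (0.926 and 0.967), and Adpgk to Cd177 (0.976). The closest to Mmp8 were Slfn1 and Retnlg and to Mmp9 Adam8 and Retnlg (0.957 to 0.976), whereas Fcnb ran with Mogat2 and Clec4b2 (0.941 and 0.932). The points share their libraries and pools.

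Some shares of cells by stage lay apart between NTB and tumor-bearing mice, though no share test had an adjusted p under 0.05. Mature neutrophil-like cells made up 1.81%, 2.83% and 2.08% of the NTB mice's cells, 10.7%, 28.8% and 32.4% of the vehicle mice's and 9.57%, 6.89% and 14.6% of the BRQ mice's. Cluster 2 made up 15%, 23.2% and 29.2%, 4.28%, 4.45% and 2.14%, and 6.5%, 5.43% and 1.37%. NTB did not overlap with either tumor-bearing group in these classes, and vehicle and BRQ mice overlapped in both. For both classes each exact two-sided permutation test of 3 tumor-bearing against 3 NTB mice gave p = 0.1, the smallest that this design allows, and 0.16 after adjustment over 8 classes. Enrichment for c-Kit set these shares in part, so they are not shares of whole marrow. Of the GMPs, 18.2%, 21.5% and 26.6% (NTB mice), 17.0%, 17.9% and 13.1% (vehicle mice) and 21.5%, 16.2% and 19.1% (BRQ mice) lay in cluster 4. This share was made equal in 1 random draw of 11, 42 and 16 GMPs per mouse from clusters 0, 1 and 4. There 11 of 12 member results kept their call, of 14 called in GMPs, since the Mmp8 results were not tested. Among GMPs within GMP-like clusters 4 of 12 kept their call, 7 kept only their direction and 1 reversed. The draw does not match where cells lie within a cluster, and the part of cluster make-up in the calls was not tested.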

How the data were processed

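Per the labels, single-cell 3' libraries were counted with Cell Ranger 6.0.0 on mm10 and analysed by the authors in Seurat. The deposited values are UMI counts per gene and hashtag counts per barcode, not normalized, in 3 pools. Hashtags were called with HTODemux of Seurat 5.3.0 at quantile 0.99. Barcodes with 500 to 7500 genes and at most 15% mitochondrial UMIs were kept, doublets were removed by hashtag, and Scrublet was run as an alternative. Cells were clustered with scanpy 1.11.5 at resolution 0.8, without the members. Each mouse's counts were summed per population of at least 10 cells and tested over all genes in all 9 mice with edgeR 4.0.16 (quasi-likelihood, TMM, filterByExpr). DESeq2 1.42.0 was an alternative. Differences between stages were tested as the interaction of stage and group with the mouse as a block. On simulated data the GMP fit, over 10331 genes, recovered 93 of 100 genes changed 4-fold and 68 of 100 changed 2-fold, with 9 false calls. The fit of immature neutrophil-like cells, over 7821 genes, recovered 92 and 55 of 100, with 6 false calls. The simulation gave all genes the same spread and no pool effect, so these rates may not hold for members that vary more between mice.

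The mice of a pool share a number and a library per the labels, so pool pairs them. Deviations from the group mean had a median r of 0.088 within and -0.046 between pools in GMPs. The members and lists were chosen with earlier results of these data known. Named genes were the 10 members, up to 3 genes of each other list with the largest change among those called in GMPs, and the 2 genes closest to each member over clusters.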

Additional observations from a re-analysis of the deposited data

Results flagged for a closer look

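The effect of the tumor or of BRQ on a member was compared between neighbouring stages, as the later minus the earlier log2 fold change, and the results below passed edgeR's interaction test with Benjamini-Hochberg adjustment over all genes. The stages come from the same mice and share libraries, and the comparisons share groups of mice. Groups of 3 mice were not tested for single samples that stand apart.

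From GMP-like clusters to cluster 4, the fall of Olfm4 in vehicle against NTB mice was larger by -1.41 (adjusted p = 0.00703), 1 of the 9 members tested where 0.399% of all genes were called. For BRQ against vehicle, Camp differed by -1.33 (adjusted p = 0.000407) and Ngp by -0.45 (adjusted p = 0.0337), where 1.71% of genes were called. For BRQ against NTB, Camp differed by -1.33, Ngp by -0.70, Ltf by -1.23 and Lcn2 by -0.73, and Fcnb, whose fall was smaller in cluster 4, by 0.46 (adjusted p = 7.3e-06), where 2.09% were called. Per mouse, cells of GMP-like clusters held 83.5 to 490 CPM of Camp and 122 to 282 of Ngp. They held 21.0 to 34.0 of Ltf, 43.3 to 99.1 of Lcn2 and 2.00 to 8.79 of Olfm4. These levels lay within or below the erythroid ranges of 51.2 to 2350, 73.9 to 2099, 34.1 to 361, 51.2 to 482 and 0 to 31.6. The part of this background in these differences was not tested.

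From cluster 4 to immature neutrophil-like cells every difference that passed was positive. The clusters were made without the members. With the members kept in clustering, where this test was not run, the members' median for vehicle against NTB was -0.31 in cluster 4 and -0.52 in immature cells, in place of -0.88 and -0.09, so the order of these stages turned. For vehicle against NTB, Ltf differed by 1.22, Olfm4 by 1.04 and Fcnb by 0.75 (0.564% of genes called). For BRQ against vehicle, Camp differed by 1.11 (0.248% called). For BRQ against NTB, Camp differed by 1.84, Ltf by 1.55, Lcn2 by 0.92, Olfm4 by 1.16 and Fcnb by 0.78 (3.47% called).

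From immature to mature neutrophil-like cells, vehicle against NTB differed by -1.06 for Camp, -1.34 for Ngp and -1.55 for Ltf (1.13% of genes called). For BRQ against vehicle, Camp differed by 1.29, Ngp by 1.58, Ltf by 1.56, Cd177 by 1.13 and Mmp8 by 1.18 (0.811% called). For BRQ against NTB, Olfm4 differed by 1.22 (0.376% called).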

How the results depend on the processing

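Of 830 values of the 48 called member results under other settings, 685 kept their direction and call, 135 kept only their direction and 10 reversed. RLE factors changed no call, and pool as a block, a paired fit, lost none. Settings for mature cells, GMPs within GMP-like clusters and clusters 2 and 8 alone were chosen after seeing the data. Without cells marked by Scrublet 32 of 36 called member results kept their call. The causes were not tested.

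The number of members called moved by over 1.5 times as follows. With pool as a replicate block it was 8 in place of 5 for BRQ against NTB in GMPs, 4 in place of 2 for vehicle against NTB and 2 in place of 1 for BRQ against vehicle in immature cells, and 2 in place of 0 for BRQ against NTB in mature cells, where the genes called in all went from 621 to 1217, 156 to 272, 9 to 42 and 11 to 24. With DESeq2 it was 3 in place of 7 for vehicle against NTB in GMPs, 3, 1 and 3 in place of 6, 2 and 7 in cluster 4 (vehicle against NTB, BRQ against vehicle, BRQ against NTB), and 1 in place of 2 for vehicle against NTB in immature cells. DESeq2 called 913 of 8528 genes in all in GMPs, 534 of 4848, 269 of 5200 and 437 of 5024 in cluster 4 and 107 of 2514 in immature cells. With no filter on low counts it was 4 and 8 in place of 2 and 5 for BRQ against vehicle and against NTB in GMPs, 4 in place of 2 for vehicle against NTB in immature cells, and 3 in place of 6 (vehicle against NTB) and 1 in place of 0 (BRQ against NTB) in mature cells, with 1450 and 855 of 17512, 217 of 15069, and 120 and 29 of 13545 genes called in all. With hashtags called from tag ratios, which left 113 to 1718 cells a mouse, it was 3 in place of 7 for vehicle against NTB in GMPs, where 447 of 7476 genes were called in all. It was 1 in place of 2 for BRQ against vehicle in cluster 4, where 24 of 5913 were. In immature cells it was 0, 0 and 0 in place of 2, 1 and 4, where 15, 0 and 3 of 4278 genes were called in all. With limits on UMIs, which kept 4126 to 5223 cells a pool, it was 0, 0 and 1 in place of 7, 2 and 5 in GMPs, where 7 of the 10 members were tested and 0, 0 and 2 of 3229 genes were called in all. In cluster 4 it was 2 (vehicle against NTB) and 1 (BRQ against vehicle) in place of 6 and 2, where 19 and 6 of 5451 genes were called in all. With the members kept in clustering it was 3 (vehicle against NTB) and 4 (BRQ against vehicle) in place of 6 and 2 in cluster 4. There 526 and 506 of 8688 genes were called in all. It was 6 in place of 2 for vehicle against NTB in immature cells, where 1127 of 9214 genes were. Over all cells of GMP-like clusters it was 2 and 1 in place of 7 and 2, where 2380 and 1376 of 10911 genes were called in all. Over GMPs within them it was 1, 1 and 3 in place of 7, 2 and 5, where 787, 1280 and 446 of 10062 were. Smaller rises were 9 and 7 in place of 7 and 5 against NTB in GMPs at an Ms4a3 limit of 2.5, where 2509 and 1744 of 11117 genes were called in all. They were also 8 in place of 6 for BRQ against vehicle in mature cells with the block and with no filter. There 304 of 4369 and 227 of 13545 genes were called in all.

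Leaving out 1 mouse gave 3 to 7, 1 to 4 and 3 to 7 members in GMPs, 4 to 7, 1 to 3 and 5 to 7 in cluster 4, 1 to 4, 1 and 1 to 4 in immature cells, and 3 to 7, 5 to 8 and 0 to 1 in mature cells, in the same order of comparisons. The genes called in all were 538 to 1500, 699 to 1477 and 227 to 775 in GMPs. In cluster 4 they were 360 to 1352, 131 to 588 and 470 to 1046. They were 55 to 260, 4 to 22 and 96 to 470 in immature cells, and 49 to 147, 81 to 277 and 4 to 21 in mature cells.

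The reversed values were Ngp (0.64) and Lcn2 (1.03) in GMPs, vehicle against NTB, with limits on UMIs, Lcn2 with tag ratios (0.097), in all cells of GMP-like clusters (0.30) and in GMPs within them (0.28), Ltf in BRQ against NTB with tag ratios (0.29), Mmp8 in BRQ against NTB at an Ms4a3 limit of 2.5 (-0.056) and in GMP-like clusters (-0.61), and Mmp9 in immature cells, BRQ against NTB, in cluster 2 (-0.15) and cluster 8 (-0.27) alone.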
